A study of Homo sapiens with 24 samples.

Results

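The comparison described here is the response of LNCaP cells to Siomycin A after 24 h of treatment. LNCaP is an established human prostate cancer cell line, first grown from a lymph node metastasis, that depends on androgen receptor signalling. The comparison was chosen by its labels and not by any measured value. It takes 3 arrays of cells given Siomycin A for 24 h and 3 arrays of cells given the solvent DMSO for 24 h, which is 6 of the 24 arrays of the series. The other 18 arrays hold the same line at 48 h and PC3, an androgen-independent prostate cancer line, at 24 h and 48 h, each with its own DMSO arrays. Both lines came from a cell bank and carry no added transgene by the labels. LNCaP was kept in Ham's F12 medium with serum, seeded in 6-well plates overnight and then treated, and total RNA was hybridised to Illumina bead arrays. The treatment protocol gives the dose as 0.5 microM, and the column names of the intensity values can be read the same way. The sample titles read as 5 microM, so the dose is not settled here. Nothing in the labels says whether the 3 arrays of a group came from separate cultures. The p-values cover only how far arrays scatter within groups, pooled over all 24 arrays, and that scatter could be purely technical. Members are the 13344 genes with a probe above background on at least 3 of the 24 arrays, each represented by its brightest probe.

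Siomycin A is a thiopeptide antibiotic made by Streptomyces. In mammalian cells it inhibits the proteasome, the protease complex that degrades ubiquitin-tagged proteins, and it is known for lowering FOXM1, a transcription factor that drives the genes of mitosis, and MELK, a kinase of dividing cells. A cell whose proteasome is blocked usually raises new proteasome subunits through the transcription factor NFE2L1, raises heat shock chaperones through HSF1, and slows general translation through the integrated stress response, in which ATF4 and DDIT3 turn on genes for amino acid supply. Dividing cells express genes of DNA replication under E2F factors and, later in the cycle, genes of mitosis under the MuvB, B-MYB and FOXM1 complexes.

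The promoters of 6 genes are shown because they carry the short elements through which these programmes are known to act. Each is the called member with the greatest change of its list whose promoter holds the list's motif upstream of the start. Of 9 such genes, IARS1, CHORDC1 and MT2A are not printed. Sequences are from RefSeq on GRCh38.p14, read on the gene's own strand from 5′ to 3′, with the motif in capitals. CKAP2L, a spindle protein gene that fell, is shown with both mitotic elements, the cell cycle homology region (CHR, TTTGAA on either strand, here on both) and the CCAAT box, at chr2:112764610-112764719 on the minus strand. POLA2, the primase-bound subunit of DNA polymerase alpha, fell and is shown with its E2F site at chr11:65261869-65261956 on the plus strand. CHAC1, a glutathione-degrading enzyme, and ASNS, asparagine synthetase, rose and are shown with the CEBP-ATF element at chr15:40953222-40953309 on the plus strand and chr7:97872429-97872516 on the minus strand. ME1, malic enzyme, and PSMD3, a lid subunit of the proteasome, rose and are shown with the antioxidant response element at chr6:83431140-83431228 on the minus strand and chr17:39980730-39980806 on the plus strand.
CKAP2L: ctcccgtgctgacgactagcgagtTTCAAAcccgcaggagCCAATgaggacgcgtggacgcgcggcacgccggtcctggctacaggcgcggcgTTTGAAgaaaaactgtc
POLA2: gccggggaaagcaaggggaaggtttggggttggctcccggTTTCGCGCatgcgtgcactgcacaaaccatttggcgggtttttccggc
CHAC1: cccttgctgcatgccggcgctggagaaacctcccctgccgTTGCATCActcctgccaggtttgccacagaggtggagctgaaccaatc
ASNS: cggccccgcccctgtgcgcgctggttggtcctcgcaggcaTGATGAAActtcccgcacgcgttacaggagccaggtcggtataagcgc
ME1: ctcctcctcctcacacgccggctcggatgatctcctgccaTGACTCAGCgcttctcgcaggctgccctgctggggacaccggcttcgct
PSMD3: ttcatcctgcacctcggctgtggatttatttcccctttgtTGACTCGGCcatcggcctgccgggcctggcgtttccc

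Each motif was searched on both strands from 250 bases before to 50 after the start, in the list members with a RefSeq promoter and in all 27305 promoters. The CHR letters were in 40 of 56 promoters of the mitosis list, or 71.4%, against 15.4% of all promoters. The CCAAT letters were in 42 of the same 56, or 75%, against 35.7%. The E2F letters (TTTNGCGC) were in 15 of 50 replication promoters, or 30%, against 1.83%. The CEBP-ATF letters (TGATGNAA) were in 6 of 20 amino acid promoters, or 30%, and in 3 of 17 promoters of the integrated stress response list, or 17.6%, against 3.67%. They were also in 5 of 15 tRNA synthetase promoters, or 33.3%. In CHAC1 this element is written in its opposite-strand form. The antioxidant letters (TGACNNNGC) were in 5 of 20 oxidative stress promoters, or 25%, in 5 of 14 promoters of the proteasome regulatory particle, or 35.7%, and in 1 of 10 core particle promoters, or 10%, against 13.6%. The heat shock element was in 5 of 31 heat shock promoters, or 16.1%, against 0.487%, and the metal response element (TGCNCNC) was in 9 of 17 metallothionein and zinc promoters, or 52.9%, against 55.2%. A match says only that the letters are present in the window.

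The 6 arrays had mean intensities between 439.9 and 498.8, with 17499 to 17720 probes above background on the DMSO arrays and 18024 to 18263 on the Siomycin A arrays. The median standard deviation of a gene over the 3 Siomycin A arrays was 0.194 on the log2 scale, against 0.128 over the 3 DMSO arrays and 0.109 to 0.142 in the other 6 groups. Siomycin A replicate 1 correlated least with its own group across genes, at a mean r of 0.98429. All 8 tested LNCaP markers were above background on all 6 arrays. The log2 of their summed linear levels lay between 13.15 and 13.19 on the DMSO arrays and between 13.37 and 13.47 on the Siomycin A arrays. That sum is weighted to the brightest markers. The log2 fold changes of the 8 split, with 4 positive, 4 negative and a median of -0.03. Of 10 PC3 markers, 6 were below background on all 6 arrays (CAV1, CAV2, CD44, ANXA1, AXL and CXCL8) and 3 were above it on all 6. Of 7 tested fibroblast, endothelial and leukocyte markers, 3 were below background throughout (COL1A2, PECAM1 and CD14) and 1 was above it throughout. The log2 of the summed linear levels of the 7 was 7.98 to 8.33 on DMSO and 8.04 to 8.35 on Siomycin A.

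In LNCaP at 24 h, genes of cell division fell together and genes of the integrated stress response and amino acid supply rose together. A minority of proteasome subunit genes rose by small amounts, more often than genes at large in the quantile-normalized fit of all 24 arrays. More heat shock genes fell than rose. In bulk samples such as these, fewer cells of a kind and less RNA per cell cannot be told apart. A gene is called changed at an adjusted p under 0.05 (limma with Benjamini-Hochberg adjustment over all 13344 genes). By that rule 2779 genes were called (20.8%), of which 1396 were higher (10.5%) and 1383 lower (10.4%). Only 78 of the higher genes (0.585%) but 262 of the lower genes (1.96%) changed at least 2-fold, so the stronger changes were mostly falls. The median log2 fold change over all genes was 0.02. With only the 6 arrays in the fit the calls numbered 427 higher and 566 lower. With each array centred on its median, instead of quantile normalized, they numbered 551 higher and 754 lower. Of 13 core particle genes of the proteasome, none was called higher in either setting. Of 15 regulatory particle genes, 1 was called higher with only the 6 arrays and 2 with median centring.

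MELK, on chromosome 9, fell clearly. Its log2 intensities were 10.47, 10.28 and 10.45 on the DMSO arrays and 8.46, 8.82 and 8.80 on the Siomycin A arrays. The groups did not overlap, and the log2 fold change was -1.70 ± 0.10 (SE, n = 3 against 3 arrays), a 3.26-fold fall with a limma adjusted p of 3.1e-10. The other MELK probe gave -1.72. FOXM1, on chromosome 12, fell less. Its values were 8.04, 8.17 and 7.86 on DMSO and 7.08, 7.10 and 7.56 on Siomycin A, where the third array lay closest to the controls. The log2 fold change was -0.78 ± 0.12, a 1.72-fold fall with a limma adjusted p of 5.1e-05, and its other probe gave -0.77.

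**Figure D1:**
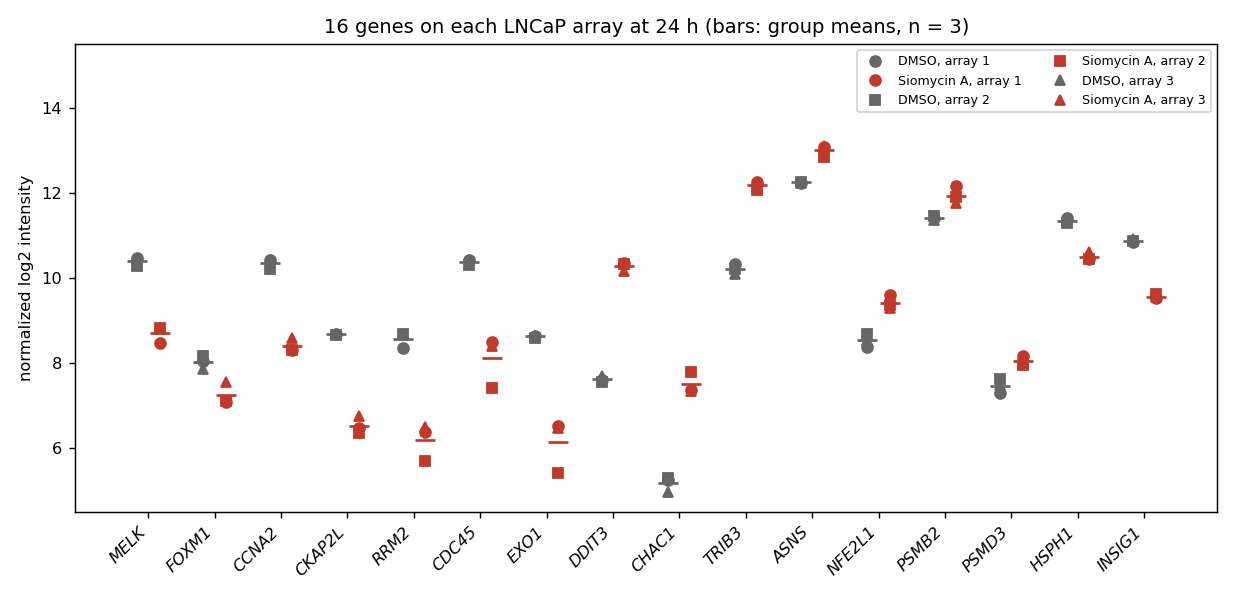
Normalized log2 intensity (vertical axis) of 16 genes on each of the 6 LNCaP arrays at 24 h, with DMSO in grey, Siomycin A in red and bars at the group means. The groups do not overlap for any gene shown. Genes taken from the 15 greatest rises and falls were chosen with separate groups, so their separation was fixed by that choice. Of all 13344 genes, 15.6% had separate groups with Siomycin A higher and 14.4% with Siomycin A lower. For RRM2, CDC45 and EXO1 the second Siomycin A array lies below the others.

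Of the 15 greatest falls, 12 belong to the cell cycle, replication or repair lists. EXO1, an exonuclease of mismatch and break repair, fell most. It read 8.64, 8.59 and 8.64 on DMSO and 6.52, 5.42 and 6.48 on Siomycin A, with a log2 fold change of -2.48 ± 0.18 (adjusted p 3.5e-09). Its standard deviation was 0.63 over the Siomycin A arrays and 0.03 over the DMSO arrays, which the pooled error does not show. The other probe of EXO1 gave -1.55. Under alternatives the fall of EXO1 was as small as -1.55 and that of CDC45 only -1.93, so EXO1 did not rank first under every setting. The other genes of the 15 fell by 1.95 to 2.37 on the log2 scale. They include RRM2, the regulatory subunit of ribonucleotide reductase (-2.37), and CDC45, a part of the replicative helicase (-2.28). FEN1, the flap endonuclease of Okazaki fragments, was at -2.09 with its other probe at -1.66, and ASF1B, a histone chaperone, at -2.10. E2F7, a repressor of the E2F family, fell by 2.07, and DDIAS, an anti-apoptotic protein gene, fell by 1.96. FBXO5, the inhibitor of the anaphase-promoting complex, fell by 2.01 at its brightest probe but its other probe gave -0.28. In 12 of the 15 genes the second Siomycin A array was the lowest, and in none was the third.

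All 67 tested genes of the mitosis list fell, where 10.4% of all genes did. Of them 57 fell at least 2-fold, where 1.96% of all genes did. Their log2 fold changes ran from -2.15 to -0.56 with a median of -1.38, against 0.02 over all genes, and in none of the 67 did the groups overlap, where 14.4% of all genes had all 3 Siomycin A arrays below all 3 DMSO arrays. CKAP2L, the spindle gene whose promoter is printed above, read 8.68, 8.65 and 8.68 on DMSO and 6.46, 6.35 and 6.76 on Siomycin A. CDCA2, which targets protein phosphatase 1 to chromatin, fell by 2.10, and AURKB, the kinase of the chromosomal passenger complex, fell by 2.03. CCNA2, cyclin A2, went from 10.42, 10.22 and 10.41 to 8.31, 8.30 and 8.58, a log2 fold change of -1.95 ± 0.09. Under the alternative settings 64 to 67 members were called lower.

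The DNA replication list fell almost as far. Of 56 tested genes 47 fell (83.9%, against 10.4% of all genes) and none rose, with a median of -1.22. Of these 36 fell at least 2-fold, where 1.96% of all genes did. CDC45 read 10.41, 10.31 and 10.43 on DMSO and 8.50, 7.42 and 8.40 on Siomycin A (-2.28 ± 0.17). RRM2 went from 8.35, 8.67 and 8.66 to 6.38, 5.70 and 6.49 (-2.37 ± 0.17). In both, the second Siomycin A array lay well below the other 2. POLA2 fell by 1.96, and MCM10, an initiation factor, fell by 1.98 with its other probe at -2.45. The second Siomycin A array was the lowest of the 3 for 33 of the 56 replication genes, the first for 21 and the third for 2. The median shift of the list from the DMSO mean was -1.27, -1.37 and -1.15 on the 3 Siomycin A arrays, so every array carried the fall.

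**Figure D2:**
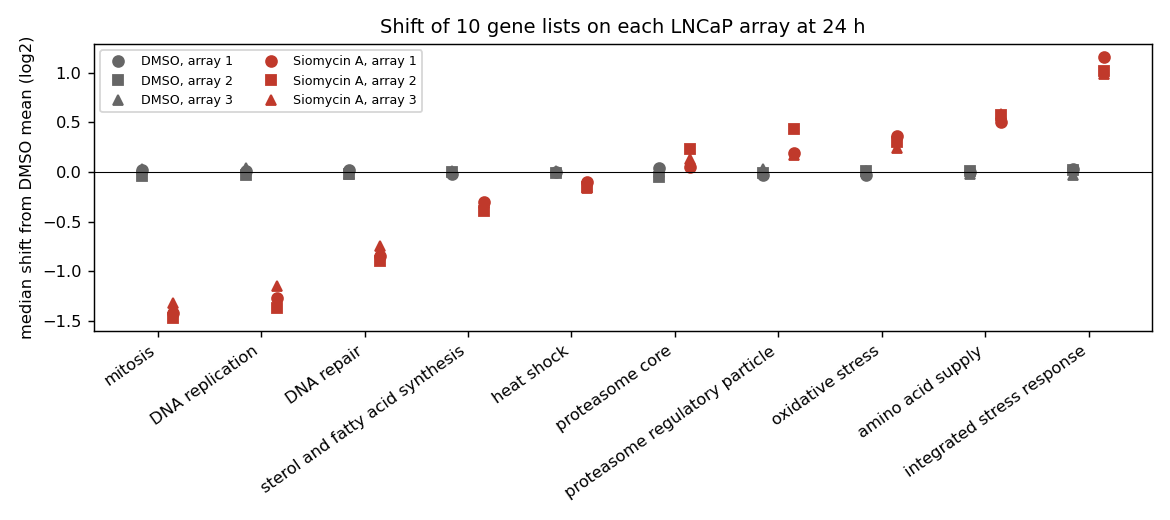
Median shift from the DMSO mean in log2 units (vertical axis) of 10 gene lists on each of the 6 LNCaP arrays at 24 h, DMSO in grey and Siomycin A in red. The 3 Siomycin A arrays lie at -1.42, -1.47 and -1.32 for mitosis and at 1.16, 1.02 and 0.99 for the integrated stress response, while the 3 arrays lie at 0.05, 0.23 and 0.13 for the proteasome core.

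Genes of DNA repair fell as well, 23 of 31 tested (74.2%, against 10.4% of all genes), with none higher and a median of -0.83. After EXO1 came FANCI, a Fanconi anaemia protein (-1.91 ± 0.15), and CHEK1, the S-phase checkpoint kinase (-1.75 ± 0.12). CHEK1 read 8.88, 8.67 and 8.73 on DMSO and 7.23, 6.62 and 7.16 on Siomycin A.

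Regulators of the cycle moved less uniformly. Of 21 tested regulators 11 fell (52.4%, against 10.4% of all genes) and none rose, with a median of -0.32. With only the 6 arrays fitted 6 fell. E2F7 went from 7.59, 7.56 and 7.32 to 5.23, 5.01 and 6.01. E2F2, an activator E2F, fell by 1.81, and LIN9, a MuvB subunit, fell by 1.45 ± 0.26. LIN9 was uneven, at 4.73, 6.13 and 6.23 on the Siomycin A arrays, and its call was lost with only the 6 arrays fitted. E2F1 was listed at 6.10, 6.64 and 6.01 on DMSO and at 6.32, 6.37 and 6.08 on Siomycin A, with an adjusted p of 0.99. Among 15 tested G1 cyclin, kinase and inhibitor genes 8 fell (53.3%) and none rose. CDC25A, the phosphatase that activates CDK2, fell by 1.67 ± 0.16, CDK2 itself by 1.55 ± 0.12 and CCNE1, cyclin E1, by 0.88 ± 0.12. Each of these 3 had another probe with a smaller change, from -0.92 for CDC25A to -0.27 for CCNE1. CDKN1A, the cyclin kinase inhibitor p21, read 11.54, 11.74 and 11.51 on DMSO and 12.17, 11.73 and 11.86 on Siomycin A. The groups overlapped and the adjusted p was 0.068, although the gene was called higher without Siomycin A replicate 2 and under 3 other alternatives.

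Histone and tubulin genes moved in both directions. Of 26 histone genes 5 fell (19.2%, against 10.4% of all genes) and 4 rose (15.4%, against 10.5%), and 1 rose with median centring. H2AX fell by 1.59 ± 0.11 and H4C3, a replication-dependent H4 gene, by 1.02 ± 0.08, whereas H2BC21 rose by 0.60 ± 0.08. Histone cluster genes are near copies of each other, so their signals may not be separable. Of 13 tubulin genes 8 fell (61.5%) and 2 rose (15.4%), with a median of -0.39, and with only the 6 arrays 2 fell and 1 rose. TUBG1, the gamma tubulin of centrosomes, fell by 1.16 ± 0.09 and TUBB by 0.92 ± 0.09, while TUBE1 rose by 0.82 ± 0.17.

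**Figure D3:**
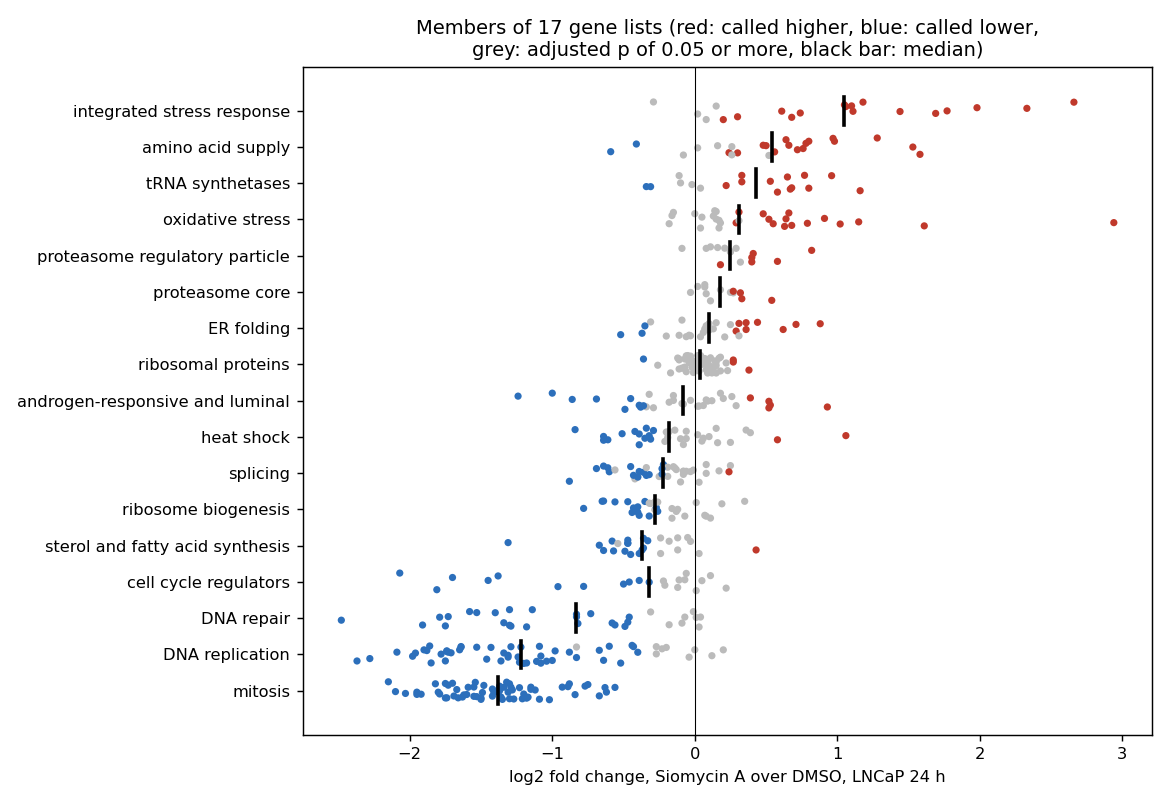
Log2 fold change (horizontal axis) of every tested member of 17 gene lists in LNCaP at 24 h, red if called higher, blue if called lower, grey if not called, with a black bar at the list median. All 67 mitosis genes are blue and lie between -2.15 and -0.56, and 16 of the 20 integrated stress response genes are red.

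The integrated stress response list rose most. Of its 20 genes 16 rose, where 10.5% of all genes did, none fell and the median was 1.05. At least 2-fold rises numbered 11, where 0.585% of all genes rose so far. DDIT3, also known as CHOP, read 7.59, 7.55 and 7.70 on DMSO and 10.34, 10.32 and 10.15 on Siomycin A, a log2 fold change of 2.66 ± 0.08 and an adjusted p of 1.8e-14. CHAC1 went from 5.25, 5.29 and 4.97, where 2 of the 3 arrays were above background, to 7.36, 7.79 and 7.35 (2.33 ± 0.18). TRIB3, a pseudokinase that DDIT3 and ATF4 induce, went from 10.32, 10.21 and 10.09 to 12.26, 12.06 and 12.25 (1.98 ± 0.08). The groups lay well apart in each. DDIT4, an inhibitor of mTORC1, rose by 1.77 ± 0.09, and SESN2, a leucine sensor, by 1.69 ± 0.26 with 1 of 3 DMSO arrays above background. ATF4 rose by 0.74 ± 0.07 at its brightest probe, and its 3 probes ranged from 0.14 to 1.51. The 4 kinases of the response moved little. EIF2AK1 alone of them rose, by 0.20, and EIF2AK4, EIF2AK3 and EIF2AK2 were not called, at -0.29, 0.02 and 0.15; these 4 were named after their values were seen.

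Of the 15 greatest rises 7 belong to the stress, amino acid, tRNA synthetase or oxidative stress lists. NIBAN1, a stress-induced regulator of translation, rose most. It read 5.11, 5.15 and 5.18 on DMSO and 7.95, 8.25 and 8.13 on Siomycin A (2.97 ± 0.16, adjusted p 4.7e-11). Its other probe gave 2.08. Under alternatives NIBAN1 went as low as 1.53 and DDIT3 only to 2.19, so NIBAN1 did not rank first under every setting. AKR1C2, an aldo-keto reductase that inactivates dihydrotestosterone, rose by 2.94 ± 0.21 and AKR1C4 by 2.15 ± 0.20. The AKR1C genes are near copies, so the member behind each signal is uncertain. S100P, a calcium-binding protein, rose by 2.38 ± 0.14, SERPINA3, a secreted protease inhibitor, by 1.99 ± 0.18, and GDF15, a stress-induced cytokine, by 1.71 ± 0.09. PELI2, a ubiquitin ligase, rose by 1.78 ± 0.12, as did the long noncoding RNA VLDLR-AS1, by 1.78 ± 0.15. FTH1P3 rose by 1.83 ± 0.15 but is a processed copy of the ferritin heavy chain gene, with which it shares sequence.

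Genes for amino acid supply rose too. Of 24 tested 16 rose (66.7%, against 10.5% of all genes) and 2 fell (8.33%, against 10.4%), with a median of 0.54. SLC6A9, a glycine transporter, rose by 1.58 ± 0.17, although its other probe gave 0.15. CTH, cystathionine gamma-lyase, went from 6.73, 6.77 and 6.62 to 8.11, 8.34 and 8.26 (1.53 ± 0.11). SLC7A5 and SLC3A2, which together form the large neutral amino acid exchanger, rose by 1.28 ± 0.16 and 0.98 ± 0.08. ASNS went from 12.23, 12.26 and 12.24 to 13.08, 12.84 and 13.09 (0.76 ± 0.08). SHMT1, cytosolic serine hydroxymethyltransferase, fell by 0.59 and PYCR3, a proline synthesis enzyme, fell by 0.41, and both calls were lost with only the 6 arrays. Of 18 aminoacyl-tRNA synthetase genes 12 rose (66.7%) and 2 fell (11.1%), with a median of 0.43. SARS1 led with 1.16 ± 0.09, followed by GARS1 with 0.96 ± 0.07, TARS1 with 0.80 ± 0.11 and MARS1 with 0.77 ± 0.09. The 2 that fell were VARS1, by 0.34, and FARSA, by 0.31, and both lost their call with only the 6 arrays and with median centring.

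Oxidative stress genes rose in smaller steps. Of 29 tested 15 rose (51.7%, against 10.5% of all genes) and none fell, with a median of 0.31. With only the 6 arrays 8 rose. SLC7A11, the cystine importer, read 7.34, 7.47 and 7.58 on DMSO and 8.94, 9.24 and 9.04 on Siomycin A (1.61 ± 0.10). ME1 rose by 1.15 ± 0.15, with its second Siomycin A array, at 11.44, above the others at 10.49 and 10.86. HMOX1, haem oxygenase, rose by 1.02 ± 0.13. Of 7 tested NRF regulators 2 rose (28.6%) and none fell. NFE2L1 went from 8.38, 8.68 and 8.54 to 9.59, 9.36 and 9.29 (0.88 ± 0.08, adjusted p 1.2e-07). MAFG, a small MAF partner, rose by 0.36, a call that 7 of its alternatives lost, and its 3 probes ran from -0.63 to 0.80. NFE2L2 and its inhibitor KEAP1 were at 0.42 and 0.36 with overlapping groups and adjusted p of 0.062 and 0.088. Each was called higher under some alternatives, NFE2L2 without Siomycin A replicate 1 and KEAP1 without Siomycin A replicate 3 among them.

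Proteasome subunits rose by small amounts. Of 13 core particle genes 4 rose (30.8%, against 10.5% of all genes) and none fell, with a median of 0.18. None was called with only the 6 arrays or with median centring. PSMB2, a subunit of the beta rings, read 11.40, 11.45 and 11.35 on DMSO and 12.16, 11.89 and 11.76 on Siomycin A (0.54 ± 0.09, adjusted p 0.00019). PSMB4, PSMA1 and PSMB7 rose by 0.33, 0.32 and 0.27. Of 15 regulatory particle genes 6 rose (40%) and none fell, with a median of 0.25. That count was 1 with only the 6 arrays, 2 with median centring and 10 without Siomycin A replicate 1. PSMC4, an ATPase of the base, rose by 0.82 ± 0.19, PSMD3 by 0.58 ± 0.12, and PSMD4, a ubiquitin receptor, by 0.41 ± 0.08. PSMD3 went from 7.29, 7.62 and 7.49 to 8.16, 7.95 and 8.02. Other proteasome genes, chaperones and immune subunits among them, numbered 16 tested. Of them 1 was higher (6.25%, against 10.5% of all genes) and 3 were lower (18.8%, against 10.4%). PSMG3 and PSMG4, assembly chaperones, fell by 0.55 and 0.52, and 1 gene of the list was called lower with only the 6 arrays, a fit in which PSMG3 lost its call.

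Heat shock and chaperonin genes moved mostly the other way. Of 34 tested 2 rose (5.88%, against 10.5% of all genes) and 13 fell (38.2%, against 10.4%), with a median of -0.18. The falls numbered 3 with only the 6 arrays, 4 with median centring and 7 without DMSO replicate 3. HSPH1, the HSP110 exchange factor, read 11.41, 11.29 and 11.33 on DMSO and 10.44, 10.45 and 10.61 on Siomycin A (-0.84 ± 0.07, adjusted p 7.8e-09). DNAJA1, an HSP40, fell by 0.64 ± 0.06 and HSPA1B, an inducible HSP70 with near-identical copies that its probe may not separate, fell by 0.64 ± 0.09. DNAJB2, another HSP40, rose by 1.06 ± 0.07 with its other probe at -0.04, and HSPA9, the mitochondrial HSP70, rose by 0.58 ± 0.06. HSF1 was not above background on any of the 6 arrays. In the endoplasmic reticulum folding list 8 of 29 rose (27.6%, against 10.5% of all genes) and 3 fell (10.3%, against 10.4%), with a median of 0.10, and 3 rose and none fell with only the 6 arrays, while 5 rose without DMSO replicate 1. OS9, a lectin of ER degradation, rose by 0.88 ± 0.14, DNAJB9 by 0.71 ± 0.14 and XBP1 by 0.62 ± 0.07. MANF, an ER stress-induced secreted factor, fell by 0.52 ± 0.09.

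Autophagy and lysosome genes rose in part. Of 36 ubiquitin and autophagy genes 11 rose (30.6%, against 10.5% of all genes) and 3 fell (8.33%, against 10.4%), with 5 higher and none lower on only the 6 arrays. GABARAPL1, an ATG8 family protein, went from 8.0, 8.03 and 7.94 to 9.10, 9.25 and 9.15 (1.18 ± 0.09), and MAP1LC3B, another, rose by 0.83 ± 0.08. Of 28 lysosome genes 7 rose (25%) and 2 fell (7.14%), with 1 higher and 1 lower on only the 6 arrays. CTSD, cathepsin D, rose by 1.21 ± 0.17, and its arrays were uneven, at 7.10, 7.27 and 7.76 on DMSO and 8.91, 8.79 and 8.06 on Siomycin A. GLA, alpha-galactosidase, fell by 0.58 ± 0.07.

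Androgen-responsive and luminal genes split in both directions. Of 33 tested 9 fell (27.3%, against 10.4% of all genes) and 5 rose (15.2%, against 10.5%), with a median of -0.08, and 2 fell and 3 rose with only the 6 arrays. Among those that fell were KLK2, a kallikrein of prostate secretion (-0.86 ± 0.15), FKBP5, a hormone-receptor co-chaperone (-0.69 ± 0.12), and NCAPD3, a condensin subunit (-1.24 ± 0.12). FKBP5 read 10.66, 10.76 and 10.87 on DMSO and 10.26, 9.80 and 10.17 on Siomycin A. TRPM8, a cold-gated channel, was above background on the 3 DMSO arrays and on none of the Siomycin A arrays, so its fall was at least 1.91-fold, with an adjusted p of 0.00068. FOLH1, the prostate-specific membrane antigen, rose by 0.93 ± 0.11, and STEAP2 and KLK4 rose by 0.53 and 0.52. The KLK2, TRPM8 and KLK4 calls were lost with only the 6 arrays fitted and the STEAP2 call with median centring. The androgen receptor gene itself was not analysed here.

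Sterol and fatty acid synthesis genes were mostly lower. Of 25 tested 15 fell (60%, against 10.4% of all genes) and 1 rose (4%, against 10.5%), with a median of -0.37. The falls numbered 2 with only the 6 arrays and 7 with median centring. INSIG1, which holds the SREBP escort protein in the ER, went from 10.84, 10.87 and 10.91 to 9.53, 9.61 and 9.54 (-1.31 ± 0.09, adjusted p 6e-10), with its other probe at -0.37. FADS1, a fatty acid desaturase, fell by 0.64 ± 0.07, LSS, lanosterol synthase, by 0.58 ± 0.12 and MVK, mevalonate kinase, by 0.67 ± 0.17, although the MVK call was lost without DMSO replicate 1. SREBF1 and SREBF2, the transcription factors of this pathway, were not called, at -0.12 and -0.24.

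Of 23 metallothionein and zinc genes 6 rose (26.1%, against 10.5% of all genes) and 3 fell (13%, against 10.4%). With only the 6 arrays 3 rose and 1 fell, and with median centring 3 rose and none fell. MT2A, a metallothionein, read 12.05, 12.05 and 11.87 on DMSO and 12.87, 12.83 and 12.76 on Siomycin A (0.83 ± 0.07), and MTF1, the zinc-sensing factor that drives these genes, rose by 0.62 ± 0.14. Metallothionein genes are also near copies.

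Of 26 apoptosis genes 3 rose (11.5%) and 2 fell (7.69%), shares near the 10.5% and 10.4% of all genes. With only the 6 arrays 1 rose and none fell, and without Siomycin A replicate 1 there were 7 that rose. XIAP, a caspase inhibitor, rose by 0.79 ± 0.19.

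Ribosome biogenesis and splicing genes were lower in part. Of 31 biogenesis genes 15 fell (48.4%, against 10.4% of all genes) and none rose, with a median of -0.28 and 5 lower with only the 6 arrays. NOP56, a core protein of small nucleolar particles, fell by 0.78 ± 0.10, and NOP16 by 0.65 ± 0.09. Of 38 splicing genes 15 fell (39.5%) and 1 rose (2.63%, against 10.5% of all genes), with 3 lower with only the 6 arrays. HNRNPC fell by 0.88 ± 0.10 with its other probe at -0.28, and SRSF2 by 0.61 ± 0.08. Of 65 ribosomal protein genes 3 rose (4.62%) and 1 fell (1.54%), both below the shares of all genes, and the median was 0.04. Of 44 respiratory chain genes 2 rose (4.55%) and none fell, also below the shares of all genes. Of 31 glycolysis and hypoxia genes 4 rose (12.9%) and 3 fell (9.68%), near the shares of all genes, and none was called with only the 6 arrays. MYC, a driver of ribosome production, fell by 0.23 ± 0.08, a call lost under 8 alternatives.

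In the interferon and antigen presentation list 5 of 28 rose (17.9%, against 10.5% of all genes) and 1 fell (3.57%, against 10.4%). ISG20, an exonuclease, rose by 1.22 ± 0.10 and HLA-E by 0.86 ± 0.08, and HLA genes resemble each other closely. Of 29 immediate early genes 4 rose (13.8%) and 2 fell (6.9%), near the shares of all genes, and 1 rose and none fell with only the 6 arrays or with median centring. DUSP8, a phosphatase of MAP kinases, rose by 1.17 ± 0.23. Of 19 growth factor genes 6 rose (31.6%) and none fell, with 1 higher on only the 6 arrays. HBEGF, an EGF receptor ligand, rose by 0.82 ± 0.09. INSR, the insulin receptor, was above background on 0 of 3 DMSO arrays and 1 of 3 Siomycin A arrays, at 5.39, 5.45 and 7.0, so its rise of at least 2.12-fold rests on 1 array. Of 10 polyamine genes 1 rose (10%) and 1 fell (10%), near the shares of all genes. SAT1, the acetyltransferase that breaks polyamines down, rose by 0.65 ± 0.07 and SRM, spermidine synthase, fell by 0.47 ± 0.11. None of 20 NF-kappaB genes was called by limma in either direction, and 9 of them were below background in both groups.

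At 48 h the same line gave more calls, 4987 genes (37.4%), of which 2530 were higher (19%) and 2457 lower (18.4%), on arrays of its own. Of the 24 h calls, 2090 were called in the same direction at 48 h, which is 75.2% of the 24 h calls and 41.9% of the 48 h calls, and 40 were called in the opposite direction. The difference between the effects was itself called for 1187 genes (8.9%), and for 157 with median centring. The mitosis median was -1.38 at 24 h and -1.40 at 48 h, and the difference between times was called for 6 of the 67 genes, with 4 lower and 2 higher at 48 h. FOXM1 was at -1.38 at 48 h against -0.78 at 24 h, a difference of -0.60 ± 0.17 (adjusted p 0.028), a call that 5 alternatives lost. DDIT3 was at 3.58 at 48 h, with a difference of 0.92 ± 0.11 (adjusted p 5e-05).

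The proteasome medians changed sign between the times. The core median was 0.18 at 24 h and -0.17 at 48 h, and the regulatory median went from 0.25 to -0.26. For 5 of 13 core genes and 8 of 15 regulatory genes the 48 h effect was called lower than the 24 h effect, where 4.39% of all genes were. PSMD3 was at 0.58 at 24 h and -0.39 at 48 h (difference -0.97 ± 0.17, adjusted p 0.0012), and PSMB2 at 0.54 and -0.09 (difference -0.63 ± 0.13). Both calls of a difference were lost with median centring. NFE2L1 was at 0.88 and 1.47 (difference 0.59 ± 0.12), a call also lost with median centring. Of the splicing genes, 16 of 38 were called lower at 48 h than at 24 h, and SRSF2 went from -0.61 to -1.77 (difference -1.16 ± 0.11). Of the androgen-responsive genes, 12 of 33 were called higher at 48 h than at 24 h and 2 lower, against 4.5% of all genes higher. FKBP5 went from -0.69 to 0.37 (difference 1.05 ± 0.17, adjusted p 0.00071) and KLK4 from 0.52 to 1.29 (difference 0.77 ± 0.15). CDKN1A, not called at 24 h, was at 1.38 at 48 h (difference 1.05 ± 0.17, adjusted p 0.00073).

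**Figure D4:**
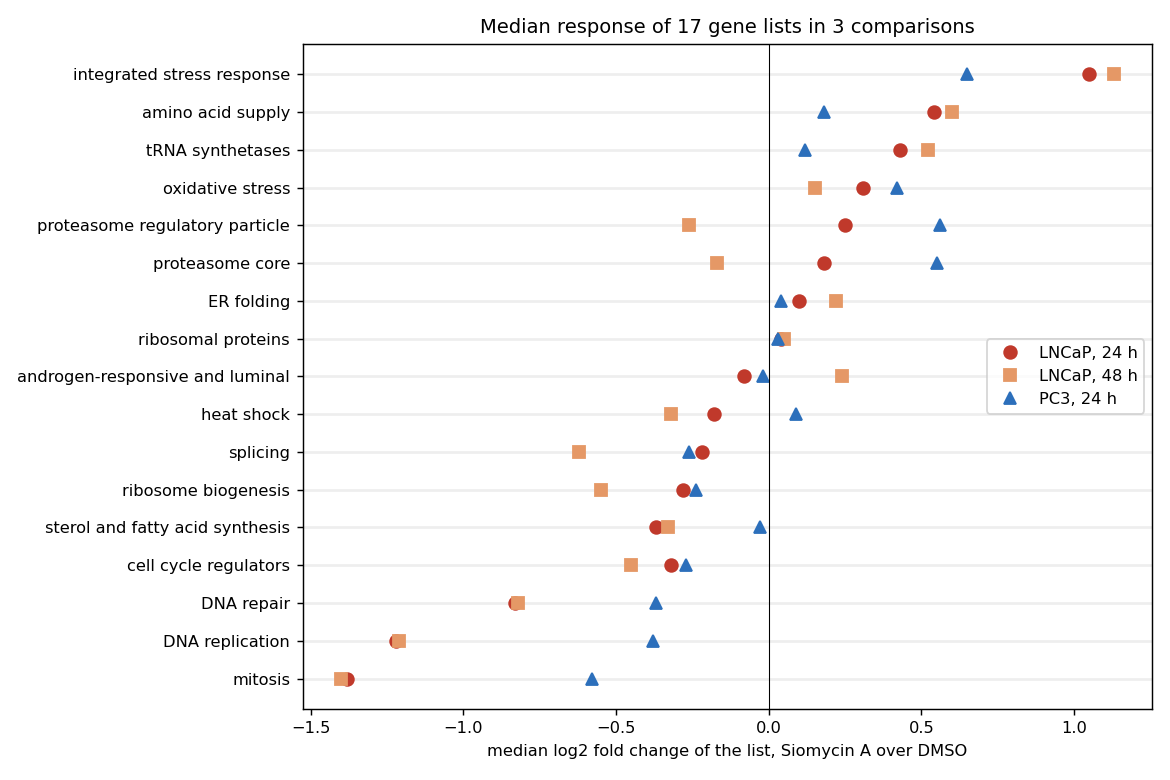
Median log2 fold change (horizontal axis) of 17 gene lists for Siomycin A over DMSO in LNCaP at 24 h, LNCaP at 48 h and PC3 at 24 h. The LNCaP medians for mitosis are -1.38 and -1.40 against -0.58 in PC3, and the proteasome medians are positive at 24 h in both lines and negative in LNCaP at 48 h.

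PC3 at 24 h gave 3066 calls (23%), 1473 higher (11%) and 1593 lower (11.9%). Of the LNCaP calls at 24 h, 1053 had the same direction in PC3, which is 37.9% of the LNCaP calls and 34.3% of the PC3 calls, and 138 had the opposite direction. The LNCaP effect was called different from the PC3 effect for 1900 genes (14.2%), with LNCaP above PC3 for 901 (6.75%) and below for 999 (7.49%). With median centring the difference was called for 653 genes. Cell division genes fell further in LNCaP. The LNCaP effect was below that of PC3 for 53 of 67 mitosis genes, 36 of 56 replication genes and 15 of 31 repair genes, and above it for none of them. MELK was at -1.70 in LNCaP and -0.52 in PC3 (difference -1.18 ± 0.15, adjusted p 1.6e-05). CKAP2L was at -2.15 against -0.20 (difference -1.95 ± 0.14). For FOXM1 the effects were -0.78 and -0.58, and their difference was not called (adjusted p 0.5).

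Stress genes differed in both directions. Over all genes, the LNCaP effect was called above that of PC3 for 6.75% and below it for 7.49%. The integrated stress response effect was above that of PC3 for 7 of 20 genes and below for 1, and the amino acid effect was above for 10 of 24 and below for none. DDIT3 was at 2.66 against 1.12 (difference 1.54 ± 0.11, adjusted p 2.9e-08) and CHAC1 at 2.33 against 0.84 (difference 1.48 ± 0.25). Proteasome genes rose more in PC3, where the core median was 0.55 against 0.18 in LNCaP, with 8 of 13 called below PC3 and none above. PSMB2 was at 0.54 in LNCaP and 1.05 in PC3 (difference -0.51 ± 0.13, adjusted p 0.01), a call lost under 2 alternatives. Heat shock genes differed for 9 of 34, all below PC3. HSPA1B was at -0.64 in LNCaP and 0.77 in PC3 (difference -1.40 ± 0.13, adjusted p 3.8e-07), and HSPH1 at -0.84 and -0.03 (difference -0.81 ± 0.09). INSIG1 was at -1.31 in LNCaP and 0.36 in PC3 (difference -1.67 ± 0.12), and MT2A at 0.83 and -0.04 (difference 0.87 ± 0.11). GABARAPL1 rose less in LNCaP, at 1.18 against 2.87 (difference -1.69 ± 0.13). CDKN1A was at 0.33 in LNCaP, not called, and 1.11 in PC3 (difference -0.78 ± 0.17, adjusted p 0.0043). Glycolysis and hypoxia genes were called below PC3 for 15 of 31 and above for 1.

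**Figure D5:**
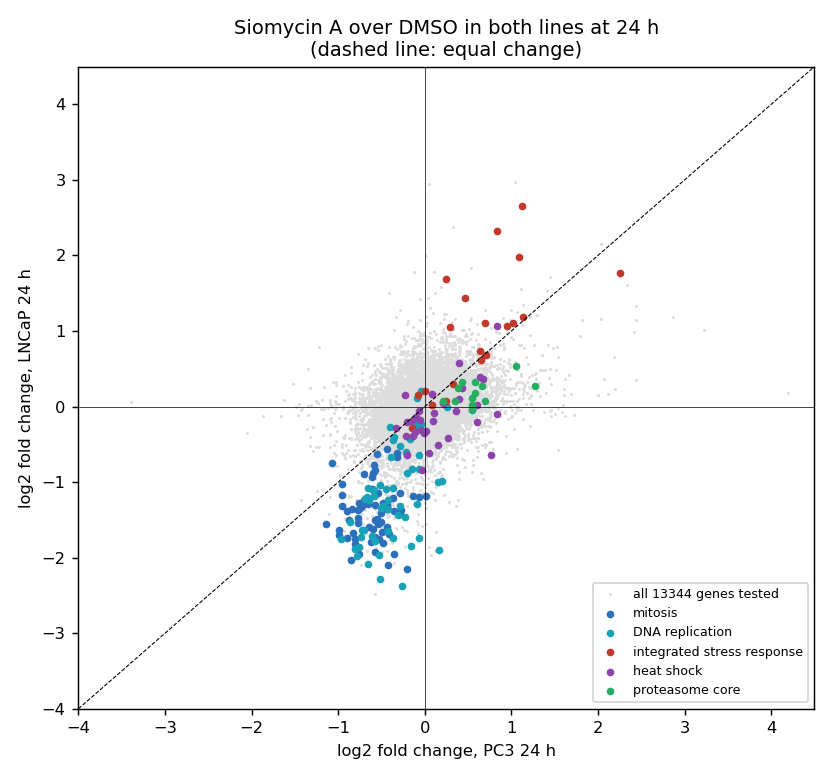
Log2 fold change for Siomycin A over DMSO at 24 h in LNCaP (vertical axis) against PC3 (horizontal axis) for 13344 genes, with 5 gene lists coloured and a dashed line of equal change. Mitosis and replication genes lie mostly below the dashed line. Of them 53 of 67 and 36 of 56 were called lower in LNCaP than in PC3, against 7.49% of all genes.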

How the data were processed

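Total RNA from LNCaP cells was hybridised to Illumina bead arrays, and the 6 arrays compared here lie in a table of 24 arrays (8 groups of 3) and 47318 probes. The deposited intensity values are linear and neither background-corrected nor scaled, per the file headers and the values themselves. The deposited detection p-value of each probe is small on both sides of the background, and its calculation is not stated in the labels or headers. The submitters' processing notes name lumi, and the log2 values that the authors also deposited equal a quantile normalization of the log2 intensities, as in the setting without background correction. The file used had 0 columns that could not be assigned to a sample.

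Background was removed with a normexp model centred on the median of those probes whose detection p exceeded 0.9, an offset of 16 was added, and log2 values were quantile normalized. A probe was above background with a p under 0.01 and a signal over that centre, and 25215 probes that met this on at least 3 arrays were kept. Of all probes 30111 had 1 gene symbol in the platform annotation, 8 had several and 17199 had none, and only probes with 1 symbol named a gene. Of 13344 genes, 3553 had more than 1 kept probe, the one with the highest mean over the 24 arrays was used, and 1445 were below background in both LNCaP groups at 24 h. Group means were fitted with limma 3.58.1 in R 4.3.3 over all 24 arrays, and p-values were adjusted by Benjamini-Hochberg over all genes. A standard error is that of the fit, with the spread pooled over all 24 arrays. The LNCaP Siomycin A arrays at 24 h had the greatest median spread of the 8 groups, at 0.194. The pooled errors and p-values can therefore be too small for this comparison. For a probe below background in a whole group, only a lower bound of the fold is given. Differences between lines and between times were contrasts in the same fit. Medians and counts of 37 lists carry no test. The lists and members were chosen with earlier results of these data known.

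Genes to name were drawn from MELK and FOXM1, the 15 greatest rises and falls with separate groups, up to 4 called genes a list in each direction, members of lists under 12 genes, the transcription factors and regulators a list is built around, and the 8 greatest differences between lines and between times. Alternatives were no background correction, an offset of 50, median centring, no filter, a filter on all 6 arrays, the mean of a gene's probes, the 6 arrays alone, the replicate number as a block, and each array left out. The labels give no chip, so chip batches were not tested. Precision is limited by 3 arrays a group. The fit was tested on simulated data in which a gene had the same spread in every group. That test does not cover the greater scatter of the Siomycin A arrays. Sequences are from RefSeq on GRCh38.p14. Some genes were not analysed here.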

Additional observations from a re-analysis of the deposited data

Results flagged for a closer look

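The response to Siomycin A at 24 h differed between LNCaP and PC3 for 1900 genes by the limma contrast of the effects. GCNT3, a mucin-type glycosyltransferase gene, had the greatest difference, at -4.02 on the log2 scale, with 4.20 in PC3 and no array above background in LNCaP at 24 h, so it is a difference of fitted values. PHACTR3, a phosphatase and actin regulator, was at 3.44, with -3.39 in PC3 and again no LNCaP array above background. AKR1C2 was at 2.89, since it rose in LNCaP and was at 0.05 in PC3. The remaining differences among the 8 greatest were -2.21 for HMOX1, -2.12 for GLA, -2.11 for RRM2, -2.09 for MLLT11 and -2.07 for CDT1, the replication licensing factor, each with the LNCaP effect below that of PC3.

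Within LNCaP the response at 48 h differed from that at 24 h for 1187 genes. AKR1C2 and AKR1C4, which had risen at 24 h, had differences of -2.21 and -1.73, and RPL22L1, a ribosomal protein paralog, of -2.10. The effect was higher at 48 h for CFAP69 by 1.91, RASD1 by 1.80, TARP by 1.77, GLYATL2 by 1.76 and TMPRSS2, an androgen-regulated protease, by 1.72.

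Among 7291 kept probes without a gene name, 524 were called between Siomycin A and DMSO in LNCaP at 24 h when all 25215 kept probes were fitted together. That is 7.19%, with 267 higher and 257 lower, against 14.1% of all kept probes.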

How the results depend on the processing

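The count of 2779 genes changed in LNCaP at 24 h was 1305 with median centring and 993 with only the 6 arrays fitted, and higher genes then made up 42.2% and 43% of the calls against 50.2%. It ran from 2150 to 3121 with 1 array left out, and 977 of the 993 genes were among the 2779. Differences between lines numbered 653 with median centring against 1900, and 1597 to 2130 with 1 array left out. Differences between times numbered 157 with median centring, 615 with only the arrays compared and 693 with the replicate block against 1187, and 935 to 1642 with 1 array left out. The causes were not tested. Same-numbered DMSO and Siomycin A arrays deviated from their group means with correlations of -0.08, -0.15 and -0.05. No pairing by number was seen in these values, though so few arrays cannot exclude one. The replicate block gave 2293 calls at 24 h and 1390 between lines. Of 2635 values of 189 named genes under alternatives, 2360 kept direction and call, 257 kept direction but lost the call, 10 gained it and 8 changed sign. SLC39A3 changed sign to 0.264 with the mean of its probes. E2F1, which was not called, was at -0.00176 without background correction and at -0.0667, -0.112, -0.0234 and -0.0485 without DMSO replicates 1 and 3 and Siomycin A replicates 1 and 2, but at 0.201 without DMSO replicate 2. MDM2, also not called, was at -0.0752 without DMSO replicate 3 and -0.0142 without Siomycin A replicate 2, but 0.414 without DMSO replicate 2. Of 528 values of 38 differences between effects, 516 kept their call and 12 lost it. Dim genes, such as the 1445 below background in both groups, allow no firm statement.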
